A study of Mus musculus with 15 samples.

Results

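The genes described here belong to the 2 gene sets that together make mitochondrial proteins inside the organelle. They are the genes of the mitochondrial genome and nuclear genes named for proteins of the mitochondrial ribosome. They were found by name in the gene count table of mouse plantaris, a fast ankle-extending hindlimb muscle. A symbol starting with mt- put a gene in the mitochondrial genome set, and a protein-coding gene whose symbol starts with Mrpl or Mrps and a digit was put in the mitoribosome set. The rule found 93 of 20406 rows. The mitochondrial genome set has 15 rows, of which 13 are protein-coding and 2 are ribosomal RNAs, and no transfer RNA row is listed. The mitoribosome set has 78 rows, 49 for the large subunit (Mrpl) and 29 for the small subunit (Mrps). It rests on symbols only, and mitoribosomal proteins with other symbols, such as Dap3, Ptcd3 and Aurkaip1, fall outside it. Another 5 Mrpl or Mrps rows are processed pseudogenes and were left out by the rule. All 93 passed the filter on low counts. The rule used no measured value, although the members were chosen with earlier results of these data known.

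The study asked how a plantaris responds to progressive weighted wheel running, abbreviated PoWeR, and what remains after the running stops. All mice were male and carried an inducible green fluorescent histone 2B under the human skeletal actin promoter, which marks the nuclei of muscle fibres. Training began at 4 months of age. The 6M_PoW group ran for 8 weeks and was taken at 6 months, with untrained 6M_UT mice of that age as controls. The 9M_PoW+DT group ran for 8 weeks, was then without training for 12 weeks and was taken at 9 months, with untrained 9M_UT mice of that age as controls. One more group, called 6M_POW_LD here after its titles (6M POW) and library identifiers (LD), was 6 months old, and what LD stands for is not given. Each group has 3 libraries, 15 in all. The labels do not say whether each library is a separate mouse, and the p-values can speak only of the spread from library to library.

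Mitochondrial DNA is a small circle transcribed as long joint RNAs that are then cut into messenger, ribosomal and transfer RNAs. Its messengers encode core subunits of respiratory complexes I, III and IV and of the ATP synthase, complex V, and the remaining subunits come from nuclear genes. The messengers are translated in the matrix by mitoribosomes, whose ribosomal RNAs are mitochondrial and whose proteins are all nuclear, so the organelle's protein output needs both genomes. Skeletal muscle is rich in mitochondria, and endurance exercise is well known for enlarging that pool.

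The titles and the treatment field of the labels disagree for 9 libraries. The field calls the 3 libraries titled 9M UT detrained, the 3 titled 9M PoW+DT sedentary and the 3 titled 6M POW4 to 6M POW6 sedentary. Groups follow the titles, except that 6M_POW_LD was kept apart from 6M_PoW because its labels contradict each other. The sign of each 9-month training comparison thus rests on the titles and turns over if the field is right. The age comparison rests on them too: with the 9-month groups exchanged, its median over the mitochondrial genes was -0.14 in place of 0.07, and over the mitoribosome genes -0.020 in place of -0.09. Total counts per library were 18865048 to 27688842. The 8 muscle fibre markers summed to between 95769 and 121106 CPM (counts per 1000000, after TMM scaling of the library totals) in every library, which fits the labelled tissue. Summed markers of fibroblast-like and immune cells were higher in every 6M_PoW and 6M_POW_LD library than in 6M_UT. The 5 fibro-adipogenic markers summed to 403 to 516, 409 to 524 and 290 to 320 CPM in these groups, and the 6 leukocyte markers to 48.0 to 67.7, 51.1 to 62.2 and 33.7 to 36.3 CPM. Taken singly, Ptprc, Cd68, Adgre1 and Csf1r overlapped between 6M_PoW and 6M_UT, and Lyz2 and Mrc1 did not. The 6 endothelial markers summed to 296 to 337, 270 to 322 and 235 to 272 CPM, so only 6M_PoW lay wholly above 6M_UT. All markers of these lists had counts in every library, and the part of their levels in the results between these groups was not tested. In bulk muscle, fewer cells of a type and less RNA per cell cannot be told apart.

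Some mitochondrial genes are nearly identical in sequence to a stretch of nuclear DNA. A nuclear insertion of mitochondrial sequence on chromosome 1 is annotated as a row of pseudogenes, and 7 mitochondrial genes have a listed copy at least 99% identical over 100 bases or more. The copy of mt-Co2, Gm28661, is identical over 681 bases and held 49.88% to 49.99% of the counts of the pair in every library. The copies of mt-Atp6 (Gm10925, identical over 678 bases) and mt-Co3 (Gm28437, identical over 783 bases) likewise held 49.77% to 49.90% and 49.92% to 49.97%. The copies of mt-Nd4l and mt-Nd3 took other shares: Gm10222 held 35.6% to 42.2% and Gm28438 held 20.4% to 39.9% of their pairs. Gm28439 held 1.05% to 1.69% of its pair with mt-Nd4, and Gm29216 held 0.109% to 0.186% of its pair with mt-Co1. The first 80 bases of mt-Nd3 and mt-Nd4l are shown with their copies, because these 2 copies match nearly the whole gene and yet held shares that were not even. They are from mouse build GRCm38 (mm10), with positions chrM:9459-9538 (plus strand), chr1:24613040-24613119 (minus strand), chrM:9877-9956 (plus strand) and chr1:24612621-24612700 (minus strand). Each is inside the annotated exon of its gene or pseudogene.
mt-Nd3: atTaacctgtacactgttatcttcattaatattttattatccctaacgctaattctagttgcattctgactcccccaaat
Gm28438: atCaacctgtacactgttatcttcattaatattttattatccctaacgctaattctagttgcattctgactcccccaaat
mt-Nd4l: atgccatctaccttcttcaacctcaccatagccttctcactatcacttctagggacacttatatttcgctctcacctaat
Gm10222: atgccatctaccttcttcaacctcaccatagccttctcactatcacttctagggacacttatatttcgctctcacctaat
The capital letter marks the single difference between mt-Nd3 and its copy over 345 aligned bases, T3C, counted from the first base of mt-Nd3. The 294 aligned bases of mt-Nd4l and Gm10222 do not differ at all.

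Mitochondrial transcripts made up 16.0% to 22.5% of all counts in a library (median 19.2%), and mitoribosome genes 0.187% to 0.237% (median 0.226%). With the nuclear copies added, the mitochondrial share was 18.3% to 25.8%. Levels between genes are compared per kilobase of transcript, as means over the 15 libraries. As deposited, mt-Co1, the catalytic subunit of cytochrome c oxidase (complex IV), was highest at 41998 CPM per kb. mt-Nd1 of complex I followed at 20272, then mt-Cytb, the sole mitochondrial subunit of complex III, at 18898 and mt-Nd4 of complex I at 17160.0 CPM per kb. The other complex IV subunits, mt-Co2 and mt-Co3, stood at 14215 and 13061 CPM per kb and mt-Atp6 of the ATP synthase at 11531. With their copies added these 3 moved to 28398, 26096 and 22994 CPM per kb, which places them directly behind mt-Co1 at 42056. The order of these messengers therefore depends on where the reads shared with chromosome 1 are counted. At the low end, mt-Nd6, the complex I subunit encoded on the other strand, was at 5247 CPM per kb, and mt-Nd3 and mt-Nd4l were at 2704 and 2469, or 3766 and 4002 with their copies added, which turns their order. mt-Atp8, a short ATP synthase subunit whose reading frame overlaps that of mt-Atp6, was lowest at 895 CPM per kb. The rows of mt-Atp8 and mt-Atp6, and those of mt-Nd4l and mt-Nd4, overlap on the same strand. How reads in the overlaps were counted is not given, so these values are not read as levels of separate RNAs. The mitochondrial ribosomal RNAs were also low: mt-Rnr2 (16S, large subunit) was at 1102 and mt-Rnr1 (12S, small subunit) at 945 CPM per kb. The way ribosomal RNA was treated in library preparation is not given in the labels. 

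Mitoribosome messengers were of moderate level and spread over a wide range. Their mean level over the 15 libraries ran from 1.60 CPM for Mrpl23 to 80.1 CPM for Mrpl51, with a median of 25.1 CPM. Per kilobase the range was 2.31 (Mrpl23) to 103 CPM per kb (Mrpl42), with a median of 17.9. Mrpl12, which sits in the stalk of the large subunit and is also reported to bind the mitochondrial RNA polymerase, had 79.4 CPM or 60.3 CPM per kb. In the small subunit, Mrps23, Mrps7 and Mrps21 had the highest mean levels, at 51.0, 48.5 and 45.9 CPM, while per kilobase Mrps21 (94.1 CPM per kb) was above Mrps23 (38.3) and Mrps7 (24.7). Of the 78 rows, 31 overlap another listed gene, and whether counting used the strand is not given. Mrpl46 and Mrps11, for instance, overlap on opposite strands of chromosome 7.

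The 2 sets were first set against each other within each library. The 13 mitochondrial protein-coding genes summed to 197592, 180016 and 185886 CPM in 6M_UT and to 200521, 201217 and 192866 CPM in 6M_PoW. In 9M_UT they summed to 189775, 199997 and 227799 CPM, and in 9M_PoW+DT to 182041, 177368 and 161502 CPM. The detrained libraries thus lay below every 9M_UT library, and 9M_UT replicate 3 was the highest of all 15. The 78 mitoribosome messengers summed to 2115, 2221 and 2270 CPM in 6M_UT and to 2226, 2219 and 2154 CPM in 6M_PoW. In 9M_UT they summed to 2069, 2051 and 1997 CPM, below all 9 six-month libraries, and in 9M_PoW+DT to 2278, 2190 and 2036 CPM, overlapping both. The ratio of the sums was 85.5 ± 6.92 in 6M_UT, 90.1 ± 0.563 in 6M_PoW, 86.8 ± 10.2 in 6M_POW_LD, 101 ± 11.6 in 9M_UT and 80.1 ± 0.850 in 9M_PoW+DT (SD, n = 3 each). Its 3 values in 9M_PoW+DT, 79.9, 81.0 and 79.3, lay below the 3 in 9M_UT, 91.7, 97.5 and 114. On the log2 scale, with each gene weighted equally, the mitochondrial set stood above the mitoribosome set by 7.92 in 9M_UT and 7.59 in 9M_PoW+DT, a difference of -0.33, whereas 6M_PoW differed from 6M_UT by 0.05.

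**Figure D1:**
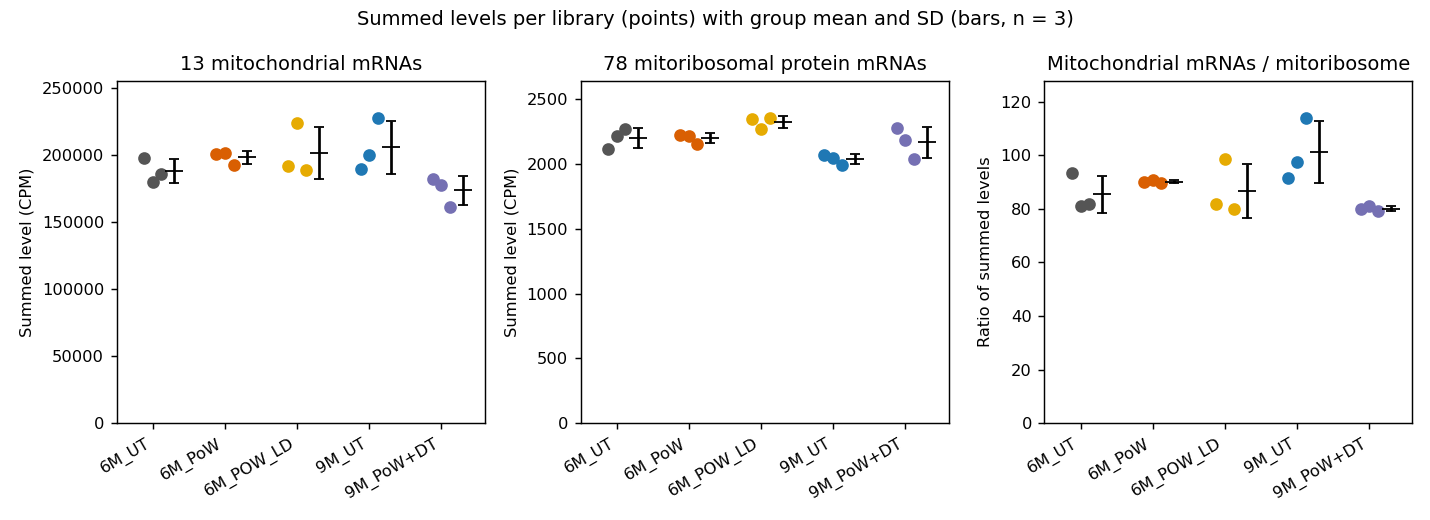
Summed level per library of the 13 mitochondrial protein-coding genes, of the 78 mitoribosome messengers (both in CPM) and their ratio, by group. Points are libraries and bars the group mean and SD (n = 3). The 9M_PoW+DT ratios, 79.3 to 81.0, lie below the 9M_UT ratios, 91.7 to 114.

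At the end of 8 weeks of training, neither gene set was separated from its controls by the test. The test was edgeR's quasi-likelihood F test over the 4 groups of the main design, with p-values adjusted over all 14919 genes tested and a threshold of 0.05. It called 0 of 14919 genes between 6M_PoW and 6M_UT (0%), so none of the 93. With the 6M_POW_LD libraries in the trained group, where their titles put them, it called 29 of 15181 genes. With them in the untrained group, where the treatment field puts them, it called 0. In the main fit, an unadjusted p under 0.05 was reached by 9.75% of all genes, 1 of the 15 mitochondrial and 2 of the 78 mitoribosome genes. DESeq2 called 0.751% of all genes. mt-Co1 was at 64049, 57679 and 59796 CPM in 6M_UT and 71193, 69133 and 65196 CPM in 6M_PoW, so the groups did not overlap, although its counts were deposited with only 3 digits. Its log2 fold change was 0.18 ± 0.08 (SE) with an adjusted p of 0.473. The other complex IV messengers were at 0.09 (mt-Co2) and 0.06 (mt-Co3), and mt-Co2 was the second of 2 mitochondrial genes whose trained libraries were all above the controls, against 7.89% of all genes. The 7 complex I genes had log2 fold changes from -0.10 (mt-Nd4l) to 0.03 (mt-Nd4), with mt-Nd1 at -0.02 and mt-Nd2 at 0.00. The ribosomal RNAs mt-Rnr1 and mt-Rnr2 were at 0.30 ± 0.26 and 0.14 ± 0.17, and their groups overlapped. Over the set, 11 of 15 log2 fold changes were above 0, with a median of 0.03 beside 0.00 for all genes (0.00 without 6M_UT replicate 2 and 0.06 without 6M_PoW replicate 3).

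Mitoribosome genes were evenly divided after training: 41 of 78 log2 fold changes were above 0, with a median of 0.00. Mrpl20, a large subunit protein, had the smallest p. It was at 20.1, 18.2 and 18.7 CPM in 6M_UT and 12.5, 12.4 and 14.4 CPM in 6M_PoW, a clear gap between the groups. Its log2 fold change was -0.54 ± 0.12 with an adjusted p of 0.160 by edgeR and 0.0129 by DESeq2, which made it the single member of either set that DESeq2 called. In the other libraries it was at 14.2 to 15.8 CPM (6M_POW_LD), 15.02 to 16.98 CPM (9M_UT) and 15.4 to 19.5 CPM (9M_PoW+DT), so 6M_POW_LD reached into the trained range and 9M_PoW+DT into the untrained one. Mrps34, of the small subunit, was at -0.21 ± 0.09 (adjusted p = 0.493), and its groups did not overlap either. The members farthest in the other direction by p were Mrpl41 at 0.24, Mrps23 at 0.17, Mrpl40 at 0.21 and Mrpl39 at 0.24, with adjusted p-values of 0.561 to 0.631. Mrpl35 (-0.17) and Mrpl50 (-0.13) complete the lowest 4. In all, 2 mitoribosome genes were above and 5 below their controls without overlap, against 7.89% and 8.28% of all genes.

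After detraining, every mitochondrial gene was lower than in the untrained mice of the same age, by amounts the test did not call, while most mitoribosome genes were slightly higher. edgeR called 3 of 14919 genes between 9M_PoW+DT and 9M_UT (0.0201%) and none of the 93, with 6.52% of all genes at an unadjusted p under 0.05. DESeq2 called 0.201% of all genes and also none of the 93. Of the 15 mitochondrial log2 fold changes, 15 were below 0, with a median of -0.25 beside 0.00 for all genes. An unadjusted p under 0.05 was reached by 9 of the 15, all lower, against 3.29% of all genes in that direction, and the detrained libraries of 7 lay wholly below the controls, against 5.7% of all genes. These genes are cut from joint transcripts and counted in the same libraries, so the 15 are not independent of each other.

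Among the messengers mt-Co2 had the lowest value, and all 3 complex IV messengers were separated from the controls. mt-Co2 was at 9523, 10461 and 12040.4 CPM in 9M_UT and 9105, 8577 and 7916 CPM in 9M_PoW+DT, with a log2 fold change of -0.32 ± 0.08 (adjusted p = 0.576). mt-Co1 was at 64384, 66047 and 75788 against 59938, 58185 and 52697 CPM, a log2 fold change of -0.27 ± 0.08 (adjusted p = 0.576). In both genes all detrained libraries were below all controls, with the highest value in 9M_UT replicate 3 and the lowest in 9M_PoW+DT replicate 3. mt-Co3 was at -0.26 ± 0.08. Of complex I, mt-Nd1 was at 19738, 20673 and 24332 against 18312, 18371 and 16506 CPM, a log2 fold change of -0.28 ± 0.08 (adjusted p = 0.576). mt-Nd2, mt-Nd4 and mt-Nd5 were at -0.25, -0.22 and -0.18, also without overlap, while mt-Nd6 (-0.13), mt-Nd4l (-0.17) and mt-Nd3 (-0.07) overlapped. mt-Cytb of complex III was at -0.18, and mt-Atp6 and mt-Atp8 of complex V at -0.23 and -0.25. The ribosomal RNA mt-Rnr1 had the lowest value and the largest error of the 15: it was at -0.58 ± 0.26, from 838, 669.5 and 1353 CPM in 9M_UT and 580, 778 and 551 CPM in 9M_PoW+DT, and mt-Rnr2 was at -0.29 ± 0.18.

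The size of this difference leaned on 2 libraries. Without 9M_UT replicate 3 the median of the 15 was -0.16, and without 9M_PoW+DT replicate 3 it was -0.17. In the latter library the 6 adipocyte markers summed to 193 CPM, against 113 and 129 CPM in the rest of its group and 111 to 127 CPM in 9M_UT. Its 6 endothelial markers were lowest of all libraries at 205 CPM. Its muscle fibre markers had the highest sum of all libraries, 121106 CPM, against 104555 and 100282 CPM in the rest of its group and 97367 to 110006 CPM in 9M_UT. The 6 slow fibre markers summed to 92.8 to 480 CPM in 9M_UT and 46.4 to 271 CPM in 9M_PoW+DT. The part of these marker levels in the result was not tested.

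**Figure D2:**
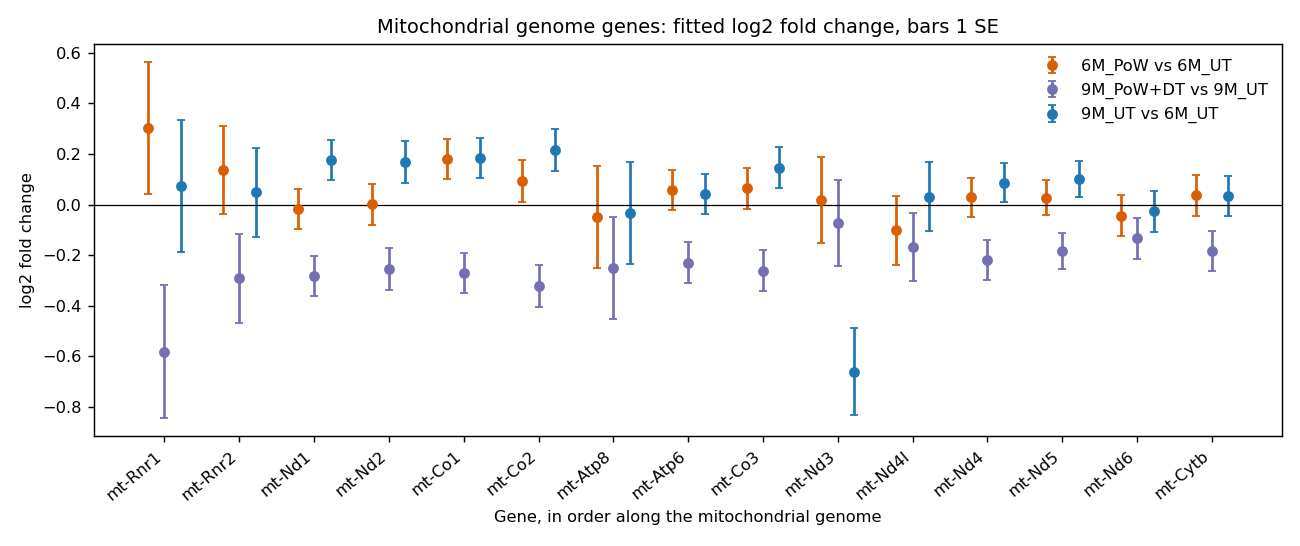
Fitted log2 fold change (y axis) of the 15 mitochondrial genes in genome order (x axis) in 3 comparisons; bars are 1 SE. All 15 points of 9M_PoW+DT against 9M_UT lie below 0, and mt-Nd3 stands apart at -0.66 in 9M_UT against 6M_UT.

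Mitoribosome genes went the other way after detraining, by small amounts. Of 78 log2 fold changes 61 were above 0, with a median of 0.07. Mrpl34, of the large subunit, was at 22.9, 19.8 and 20.0 CPM in 9M_UT and 30.1, 25.1 and 26.7 CPM in 9M_PoW+DT. Its log2 fold change was 0.39 ± 0.11 with an adjusted p of 0.576. Mrpl12 was at 67.7, 70.1 and 67.5 against 82.3, 83.5 and 71.5 CPM, a log2 fold change of 0.21 ± 0.08 (adjusted p = 0.692). Mrps28 (0.27) and Mrpl9 (0.20) also had detrained libraries wholly above the controls, and Mrpl9 overlaps another listed gene. In this direction 10 members were separated, against 6.19% of all genes, and 6 reached an unadjusted p under 0.05, against 3.22%. The lowest by p, Mrpl50 (-0.16), Mrps18b (-0.16), Mrpl54 (-0.11) and Mrpl32 (-0.11), had adjusted p-values of 0.773 to 0.912. The small subunit had a median of 0.12 and the large subunit 0.06. Without 9M_PoW+DT replicate 1 the median of the 78 was 0.035, and without replicate 3 of that group it was 0.12.

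The next comparison asked whether the 9-month effect differed from the 6-month effect. It subtracts the training log2 fold change from the detraining one, so both of its parts have already been given and it shares their libraries. edgeR called 4 of 14919 genes (0.0268%), and none of the 93. The mitochondrial genes had 15 of 15 values below 0 and a median of -0.26, with mt-Co1 at -0.45 ± 0.11 (adjusted p = 0.222), mt-Co2 at -0.42 ± 0.12 and mt-Rnr1 at -0.89 ± 0.37. The mitoribosome genes had 53 of 78 values above 0 and a median of 0.08 (0.035 without 9M_PoW+DT replicate 1), led by Mrpl20 at 0.66 ± 0.17 (adjusted p = 0.230) and Mrpl12 at 0.31 ± 0.11. DESeq2 called mt-Co1 (-0.45, adjusted p = 0.0441) and Mrpl20 (0.66, adjusted p = 0.0490), which edgeR did not, among the 0.744% of all genes it called. At an unadjusted p under 0.05 by edgeR stood 8 mitochondrial genes, all lower, and 4 mitoribosome genes, all higher, against 4.69% and 4.79% of all genes.

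Between untrained mice of 9 and 6 months, mitoribosome genes were mostly lower at 9 months and 1 mitochondrial gene, mt-Nd3, stood out. edgeR called 2 of 14919 genes (0.0134%), none of the 93, with 6.72% of all genes at an unadjusted p under 0.05. The 9M_UT libraries serve here and in the detraining comparison with opposite sign, and 6M_UT here and in the training comparison, so the values are not separate evidence. Of the 78 mitoribosome genes 66 were below 0, with a median of -0.09 beside 0.00 for all genes. The 9M_UT libraries were wholly below 6M_UT for 16 of them, against 6.47% of all genes, and wholly above for 0, against 5.34%. At an unadjusted p under 0.05 stood 11 of them, all lower, against 3.51% of all genes. Mrpl12 had 79.0, 83.7 and 83.9 CPM in 6M_UT and 67.7, 70.1 and 67.5 CPM in 9M_UT, a log2 fold change of -0.27 ± 0.08 (adjusted p = 0.499). Mrps33 was at 15.5, 15.3 and 16.4 against 11.9, 12.5 and 12.1 CPM, a log2 fold change of -0.37 ± 0.12 (adjusted p = 0.550). Mrpl12, Mrpl34, Mrpl9 and Mrps28 are thus among the genes lower in 9M_UT than in both 6M_UT and 9M_PoW+DT, a pattern that one set of 3 libraries can set. The genes highest by p, Mrps18b and Mrps31, overlapped between groups. The 29 nuclear respiratory chain subunits, the partners of the mitochondrial ones, were all below 0 as well, with a median of -0.11. Lowest were the complex IV subunits Cox8b, at -0.59 ± 0.11 (adjusted p = 0.0876), and Cox7a1, a muscle form, at -0.54 ± 0.11 (adjusted p = 0.182). Most mitochondrial genes were not lower: 12 of 15 were above 0 and the median was 0.07 (-0.032 without 9M_UT replicate 3), with mt-Co2 at 0.22 ± 0.08 and mt-Co1 at 0.18 ± 0.08, and 3 of them higher at an unadjusted p under 0.05, against 3.21% of all genes.

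**Figure D3:**
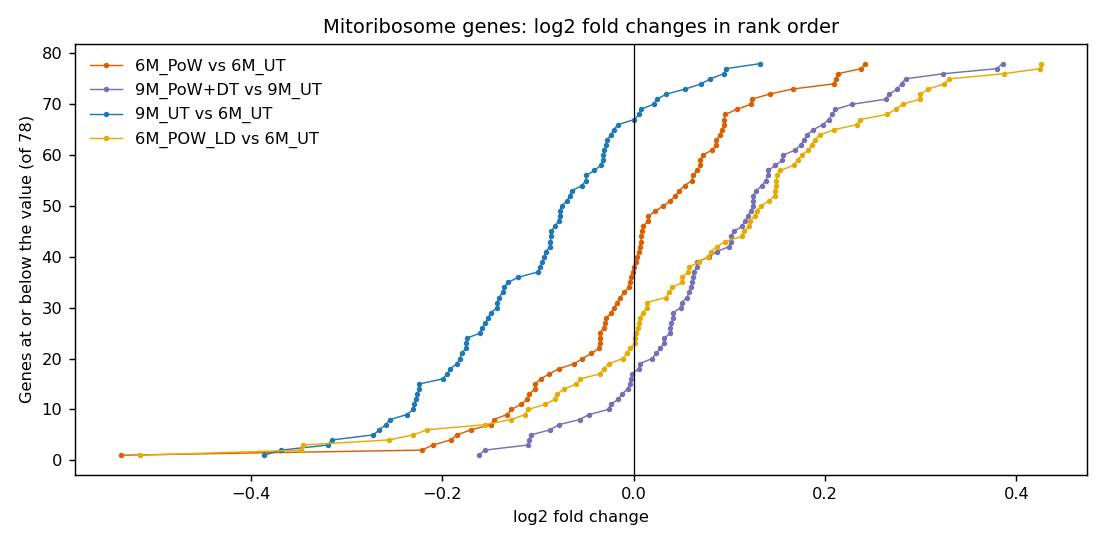
Log2 fold changes of the 78 mitoribosome genes in rank order (x axis), with the number of genes at or below each value (y axis), in 4 comparisons. The curve of 9M_UT against 6M_UT crosses 0 after 66 genes, and that of 9M_PoW+DT against 9M_UT after 17.

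mt-Nd3, a small core subunit of complex I, had 982, 1048 and 1306 CPM in 6M_UT and 724, 664 and 721 CPM in 9M_UT. Its log2 fold change was -0.66 ± 0.17, with an adjusted p of 0.453 by edgeR and 0.0247 by DESeq2 (which called 0.389% of all genes), and without 9M_PoW+DT replicate 3 in the shared fit edgeR's adjusted p was 0.0138. The gap held over all libraries: 978 to 1306 CPM in the 9 six-month libraries against 470 to 792 CPM in the 6 nine-month libraries. No other mitochondrial gene and no mitoribosome gene separated the ages in this way, and 22 of 15181 genes (0.145%) did so in that direction. The share of the pair given to the copy Gm28438 also separated the ages, at 20.4% to 30.3% against 31.7% to 39.9%. With both rows summed the level was 1367 to 1646 CPM against 741 to 1318 CPM, still without overlap, and the log2 fold change was -0.48 (adjusted p = 0.604). Relative to mt-Nd4 the deposited row was 3.94% to 5.64% at 6 months and 2.37% to 3.47% at 9 months, and the summed rows were 5.35% to 7.10% and 3.68% to 5.71%, which overlap. The library identifiers follow the ages: all nine-month libraries carry DT numbers and the six-month ones PoW or LD numbers. Age and whatever those series stand for cannot be told apart.

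**Figure D4:**
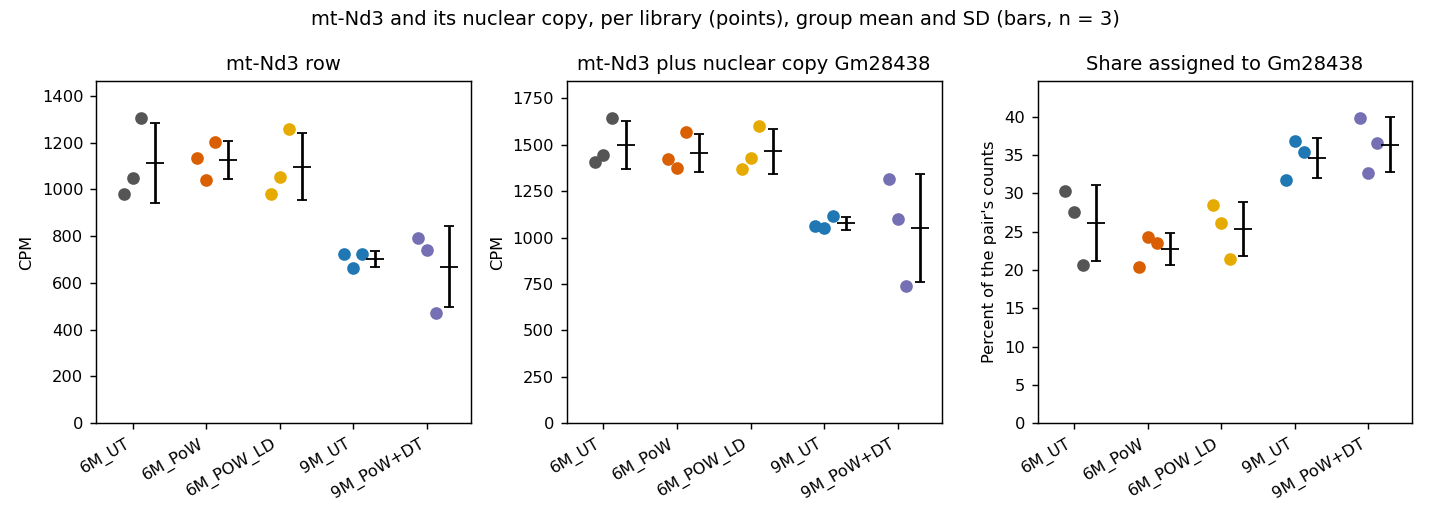
Level of the mt-Nd3 row, of mt-Nd3 plus its nuclear copy Gm28438 (both CPM) and the percent of the pair's counts assigned to the copy, per library; bars are group mean and SD (n = 3). The nine-month libraries are below all six-month ones in both levels and above them in the share of the copy.

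The 6M_POW_LD libraries were compared with 6M_UT and, separately, with 6M_PoW, in a fit of all 5 groups. The 6M_POW_LD libraries carry LD numbers, while those of 6M_UT and 6M_PoW carry PoW numbers. Group and whatever those series stand for cannot be told apart in either comparison. By edgeR the 2 comparisons of 6M_POW_LD were the ones with calls among the 93, all in mitoribosome genes and all higher in 6M_POW_LD. DESeq2 also called the members named above in other comparisons, and Mrpl20, which was lower in 6M_POW_LD, against 6M_UT. Against 6M_UT, edgeR called 757 of 15181 genes (4.99%, and 2.15% higher). Of the 78 mitoribosome genes 5 rose (6.41%) and 0 fell, and of the 15 mitochondrial genes none was called, with a median of 0.04 (0.0029 without 6M_POW_LD replicate 5 and 0.09 without replicate 6). Against 6M_PoW, 365 of 15181 genes were called (2.4%, and 1.28% higher), among them 1 mitoribosome gene and no mitochondrial gene. DESeq2 called 6 and 2 mitoribosome genes in these comparisons and 7.84% and 4.45% of all genes. Shares of this size over 78 genes are not read as particular to the set.

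Mrpl45, a large subunit protein at the mouth of the peptide exit tunnel that holds the ribosome to the inner membrane, was called in both. It was at 61.6, 57.6 and 63.1 CPM in 6M_POW_LD, above every other library: 44.5, 50.2 and 40.9 CPM in 6M_UT and 47.2, 45.2 and 33.2 CPM in 6M_PoW, with 37.6 to 48.5 CPM at 9 months. Its log2 fold change was 0.43 ± 0.12 against 6M_UT (adjusted p = 0.0441) and 0.54 ± 0.12 against 6M_PoW (adjusted p = 0.0195). Mrps23, of the small subunit, was at 59.4, 60.3 and 57.1 CPM against 46.8, 44.1 and 51.9 CPM in 6M_UT, and rose by 0.31 ± 0.08 (adjusted p = 0.0381). Its 6M_PoW libraries, at 54.2, 51.8 and 54.2 CPM, were below 6M_POW_LD and overlapped 6M_UT. Mrpl46 was at 18.3, 18.9 and 19.2 CPM against 15.4, 14.2 and 13.5 CPM, a log2 fold change of 0.39 ± 0.11 (adjusted p = 0.0454). Mrpl46 overlaps Mrps11 and a further listed gene, so its reads may be shared. Mrpl28 (0.32 ± 0.09, adjusted p = 0.0458) and Mrpl10 (0.42 ± 0.12, adjusted p = 0.0474) were also called. Apart from Mrpl45, edgeR called none of the 5 against 6M_PoW, where DESeq2 also called Mrpl46. Between 6M_POW_LD and 6M_UT, 20 mitoribosome genes were separated upward and 2 downward, against 12.6% and 12.7% of all genes, and the median was 0.07. Below 6M_UT by p were Mrpl20 at -0.35 (adjusted p = 0.0871, but called by DESeq2) and Mrpl54 at -0.35 (adjusted p = 0.0949). Against 6M_PoW, Mrpl46 (0.38, adjusted p = 0.0689), Mrps12 (-0.34, adjusted p = 0.153) and Mrpl33 (-0.44, adjusted p = 0.191) came next, and 15 mitoribosome genes were separated upward and 7 downward, against 10.7% of all genes in each direction.

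The 5 red blood cell markers summed to 496 to 3130 CPM in 6M_POW_LD, 329 to 911 CPM in 6M_UT and 593 to 735 CPM in 6M_PoW, and their part in these calls, like that of the fibroblast-like and immune markers given above, was not tested. These calls lie close to the threshold. With scaling by total counts in place of TMM none of the 5 was called (adjusted p of 0.0607 to 0.0977), and leaving out any one of the 3 6M_POW_LD libraries, 6M_UT replicate 1 or 9M_PoW+DT replicate 2 also left 0. Without 6M_UT replicate 2 or 3, 6M_PoW replicate 1 or 2, or any one 9M_UT library, 1 or 2 were left. Against 6M_PoW, Mrpl45 lost its call with total-count scaling (adjusted p = 0.0602) and without 6M_PoW replicate 3 (0.0855), 6M_POW_LD replicate 4 (0.0763) or 6M_POW_LD replicate 6 (0.0765).

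**Figure D5:**
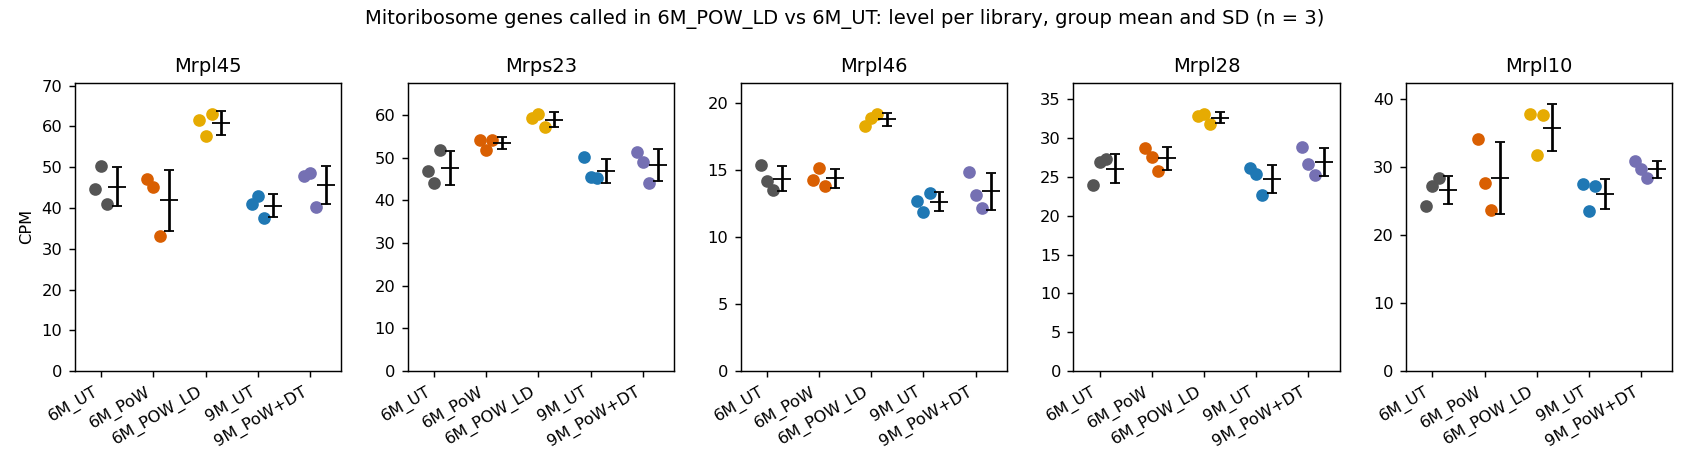
Level in CPM, per library and by group, of the 5 mitoribosome genes called higher in 6M_POW_LD than in 6M_UT; bars are group mean and SD (n = 3). For Mrpl45 the 6M_POW_LD libraries, 57.6 to 63.1 CPM, lie above all others.

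Short motifs that the rule did not use were more frequent in promoters of mitoribosome genes than in all promoters. In the RefSeq promoter windows of build GRCm38.p6, 250 bases before to 50 after a gene's start, 69 of the 78 genes had an entry. Searched on both strands were GCGCA followed by any base and GCGC, a core of the binding site of NRF1, CCGGAAG, a core bound by ETS factors such as GABP, and AAGATGGC, a core of the YY1 site. The NRF1 core was in a window of 18.8% of the 69 genes, against 5.19% of all 27025 genes with a window. The ETS core was in 37.7% against 9.93% and the YY1 core in 17.4% against 3.19%. At least 1 of the 3 was in 62.3% against 16.4%. Of the nuclear respiratory chain subunits, 21 had a window, and 12 of these (57.1%) held at least 1 of the 3. The ETS core was in 6 of the 21 (28.6%), and the NRF1 and YY1 cores in 4 each. The higher shares are therefore not read as particular to the mitoribosome set. A match is a string of letters and not a measured site. Among the 5 genes edgeR called in 6M_POW_LD, the same window of Mrpl45 holds the NRF1 core and that of Mrps23 the ETS core, while those of Mrpl46, Mrpl28 and Mrpl10 hold none of the 3. The 150 bases upstream of Mrpl45, with the NRF1 core at 2 places, are shown because that gene was called in both comparisons. It lies upstream of the gene at chr11:97315566-97315715 on the plus strand, and capitals mark the matches.
Mrpl45: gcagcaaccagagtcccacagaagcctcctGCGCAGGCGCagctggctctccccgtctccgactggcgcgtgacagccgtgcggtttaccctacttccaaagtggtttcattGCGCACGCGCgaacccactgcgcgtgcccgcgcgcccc

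Genes that act on the same steps were followed as lists. Of 153 list genes outside both sets, edgeR called none in the training, detraining, difference or 9-month against 6-month comparisons, and 8, 9, 8 and 15 had an unadjusted p under 0.05. Over all genes such p-values made up 9.75% for training, 6.52% for detraining, 4.79% higher and 4.69% lower for the difference and 6.72% for age. DESeq2 called 0 in the training and 0 in the detraining comparison, Esrra in the difference and Atp5e, Cox7a1 and Cox8b, nuclear subunits of complexes V and IV, between ages. The 20 genes of mitochondrial transcription and DNA upkeep had medians of 0.01 after training and 0.07 after detraining, with Polrmt, the mitochondrial RNA polymerase, at -0.16 after training (adjusted p = 0.691) and Tfb1m, an rRNA methyltransferase, at 0.43 and 0.25. Over the 26 genes of RNA processing and stability the medians were 0.04 and 0.04, with Pus1, a pseudouridine synthase, at 0.42 after detraining (adjusted p = 0.735). The 24 assembly genes stood at 0.06 and 0.03, the 16 translation factors at 0.04 and 0.07, and the 20 aminoacyl-tRNA synthetase genes at -0.01 and 0.07. Mtif3, a mitochondrial initiation factor, was at 0.35 after detraining (adjusted p = 0.646). Among 13 regulators, Esrra, the nuclear receptor that drives many respiratory genes, was at -0.25 ± 0.08 after training and 0.19 ± 0.08 after detraining (adjusted p = 0.280 and 0.703), and Perm1, a muscle regulator downstream of it, at -0.45 after training (adjusted p = 0.447). The nuclear respiratory subunits had medians of 0.07 and 0.06, with 20 and 23 of 29 above 0, so after detraining their median had the sign of the mitoribosome genes and not that of the mitochondrial ones.

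In 6M_POW_LD edgeR called 7 of the 153 list genes against 6M_UT and 4 against 6M_PoW, beside 4.99% and 2.4% of all genes, and DESeq2 called 16 and 7, beside 7.84% and 4.45%. These shares are not read as particular to the lists. Of 16 translation factors 3 rose against 6M_UT: Gfm1, the elongation factor G1, by 0.41 ± 0.07 (adjusted p = 0.00305), Taco1, an activator of mt-Co1 translation, by 0.38 ± 0.10 (adjusted p = 0.0320), and Mtres1 by 0.36 ± 0.10 (adjusted p = 0.0437). Ptcd3, a small subunit protein known by another symbol, rose by 0.40 ± 0.08 (adjusted p = 0.00550). Gatb, a subunit of the enzyme that makes glutaminyl-tRNA, and Cyc1, cytochrome c1 of complex III, rose by 0.40 and 0.26. Top1mt, the mitochondrial topoisomerase, fell by 0.56 (adjusted p = 0.0222). Against 6M_PoW, Gfm1 and Ptcd3 rose by 0.32 and 0.41, and Top1mt and Mtg1, an assembly GTPase, fell by 0.56 and 0.56.

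Over the 15 libraries, log2 CPM of genes outside both sets was compared with the mean of the 13 mitochondrial protein-coding genes. Most like it were 3 nuclear copies, Gm10925 (Pearson r = 0.98), Gm28661 (0.90) and Gm28437 (0.86), followed by Hey1 and Zfp113 (both 0.84). These copies held a nearly constant share of their pairs, as given above. Most like the mean of the mitoribosome genes were Ndufb10 (0.93), Tap2 (0.92), Ndufb6 (0.91), Atp5g3 (0.91) and Cox5a (0.91), of which Ndufb10, Ndufb6, Atp5g3 and Cox5a encode nuclear subunits of complexes I, V and IV. All these points share libraries, depth and group structure, and the coefficients are descriptions without a test.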

How the data were processed

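Total RNA of plantaris muscle was sequenced on 15 libraries in 5 groups of 3. The authors deposited expected counts per gene: 26.2% to 31.3% of values are not whole, and 18 values of 1000000 or more carry 3 digits, which touches mt-Co1. Per the submitters' processing notes STAR 2.7.3a, Partek, DESeq2 and build mm10 were used. The counting method, annotation and use of strand are not stated in the labels or notes used here. Counts were rounded to whole numbers and, for genes passing filterByExpr (minimum count 10), scaled by TMM and tested with edgeR 4.0.16 (glmQLFit, glmQLFTest) in R 4.3.3, with Benjamini-Hochberg adjustment over all genes tested. The training, detraining, difference and age comparisons share a fit of 4 groups, and the 6M_POW_LD comparisons a fit of 5. Depth, 18865048 to 27688842 counts, leaves counting error small for the mitochondrial genes and larger for mitoribosome genes of few CPM. Alternatives were DESeq2 1.42.0, limma-voom 3.58.1, other filters and scalings, a replicate block, leaving out each library and exchanged 9-month groups. The 6M_POW_LD libraries were also placed in the trained or in the untrained group. Chosen after seeing the data was a fit with nuclear copies added to their genes. Copies were found with BLAST 2.17.0. Scripts were tested on simulated data. Rows match the coordinates of GENCODE M21 for all 93 members, and lengths are of principal transcripts.

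Named were all mitochondrial genes. Of the mitoribosome, every member called, the 4 of smallest p in each direction of the training and detraining comparisons and 2 in the others, the 3 of highest mean CPM per subunit and Mrpl12 were named. Mrpl42, Mrpl23 and, as examples of overlap or separation, Mrps11, Mrps28 and Mrpl9 beyond that rule were named after their values were seen. Of each list up to 4 members of smallest p in the training and detraining comparisons could be named. Mtres1, Top1mt, Mtg1 and Cox8b fall outside that rule and were named after their calls in other comparisons were seen. The members and lists were chosen with earlier results of these data known.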

Additional observations from a re-analysis of the deposited data

How the results depend on the processing

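The medians and counts of calls of both gene sets, in 6 comparisons, were recomputed under each alternative. A change of sign in a single gene called in neither setting was not counted as a reversal. DESeq2 called 1 mitoribosome gene (Mrpl20) after training, 1 mitochondrial and 1 mitoribosome gene in the difference, 1 mitochondrial gene (mt-Nd3) between ages and 2 mitoribosome genes in 6M_POW_LD against 6M_PoW, where limma-voom also called 2. With the 9-month groups exchanged, the mitochondrial and mitoribosome medians became 0.25 and -0.073 for detraining, 0.19 and -0.11 for the difference and -0.14 and -0.020 for age, by construction. Scaling by total counts gave a mitoribosome median of 0.13 for detraining, shifting all genes by 0.06, and 0 mitoribosome calls in 6M_POW_LD against either group. Against 6M_UT, 2 were left without the low-count filter and 1 with only the groups compared. With medians in place of means, the gap between the sets differed by 0.30 between ages, not 0.14. The cause of these changes was not tested.

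Leaving out 1 library at a time, the mitochondrial median ran from -0.30 to -0.16 for detraining, from -0.33 to -0.17 for the difference, from 0.00 to 0.06 for training, from -0.032 (without 9M_UT replicate 3) to 0.15 for age and from -0.05 (without 6M_POW_LD replicate 5) to 0.07 for 6M_POW_LD against 6M_PoW. The mitoribosome median ran from 0.035 (without 9M_PoW+DT replicate 1) to 0.12 (without 9M_PoW+DT replicate 3) for detraining, from 0.03 to 0.11 for the difference and from -0.13 to -0.07 for age. Mitochondrial calls between ages were 0 to 1, with 1 (mt-Nd3) without 9M_PoW+DT replicate 3. Mitoribosome calls were 0 to 5 in 6M_POW_LD against 6M_UT and 0 to 2 against 6M_PoW, and 9-month libraries moved them too through the shared spread, with 0 left without 9M_PoW+DT replicate 2.

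Replicate numbers showed no clear pairing of the libraries: deviations of the 18 same-numbered pairs correlated at -0.20 to 0.15 (median 0.01), and 2 were over 0.1. These are deviations from means of 3 libraries, so a weak pairing could be missed. With a replicate block, 0 members were called in the training, detraining, difference and age comparisons, as without it, and the mitochondrial median for detraining was -0.25.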
